A study of Homo sapiens with 9 samples.

Results

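MAOB, the gene of monoamine oxidase B, was followed in the HT-29 cell line, which derives from a human colon adenocarcinoma. It was found through the platform's annotation, in which 1 of the 16098 rows with a gene symbol carries MAOB, among 14884 named genes in all. The gene was selected on its RMA levels in these same 3 groups, so they are given below as a description with no test. The 3 groups of 3 arrays each, all harvested after 24 h, held cells given carnosic acid, a phenolic diterpene of rosemary, cells given rosemary extract, a polyphenol-rich plant extract, and untreated cells, which received the vehicle. All were cultured in McCoy's 5A medium with fetal calf serum, and the labels name no other agent. The sources used here give no dose of either, so a difference between the treatments is a difference between these preparations and not between matched doses. The 3 arrays of a group are biological replicates of 1 cell line, per the design text.

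Monoamine oxidase B is a flavoenzyme of the outer mitochondrial membrane. With FAD as its bound cofactor it oxidises phenylethylamine, benzylamine, dopamine, methylhistamine and acetylated putrescine to aldehydes, releasing ammonia and hydrogen peroxide. Its paralog, monoamine oxidase A, prefers serotonin and noradrenaline, and their genes lie side by side on the X chromosome. MAOB is best known from astrocytes, platelets and liver and as the target of selegiline and rasagiline, and it is also found in the gut wall, where monoamine oxidases break down amines from food and from bacteria.

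MAOB stood at a log2 RMA level of 8.38, 8.03 and 8.03 in the carnosic acid arrays. It stood at 8.23, 8.13 and 8.07 in the rosemary extract arrays, and at 6.24, 5.86 and 6.04 in the untreated arrays. All 6 treated arrays lay above all 3 untreated arrays, and the lowest treated array was 1.79 log2 units above the highest untreated one, while the carnosic acid and rosemary extract arrays overlapped. Groups without overlap were found for 32.8% of genes tested between carnosic acid and untreated cells, 46.7% between rosemary extract and untreated cells and 31.8% between the treatments, and nothing is read from these shares for the gene itself. The means were 8.147 ± 0.204 with carnosic acid, 8.145 ± 0.078 with rosemary extract and 6.045 ± 0.190 in untreated cells (log2, SD, n = 3 each). Against untreated cells the level was 4.29-fold higher with carnosic acid (log2 difference 2.10 ± 0.12, SE) and 4.29-fold higher with rosemary extract (log2 difference 2.10 ± 0.12, SE). Carnosic acid and rosemary extract differed by 0.0020 ± 0.12 (log2, SE), less than the spread of either group. The order of the levels was thus carnosic acid, rosemary extract and untreated, and the first pair did not differ beyond its spread. Without carnosic acid replicate 1, the highest array, the difference between the treatments was -0.116, and the rises were 1.98 with carnosic acid and 2.10 with the extract. Every array lay above 4.50, the mean level under which the dimmest 25% of genes were left out. That limit is a rank among genes and not a detection call. In untreated cells GFAP (6.16), PF4 (6.52) and TTR (6.03), markers of other cell types, stood about as high as MAOB or higher. The values describe whole cultures, so more cells that express MAOB and more MAOB RNA per cell cannot be told apart.

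**Figure D1:**
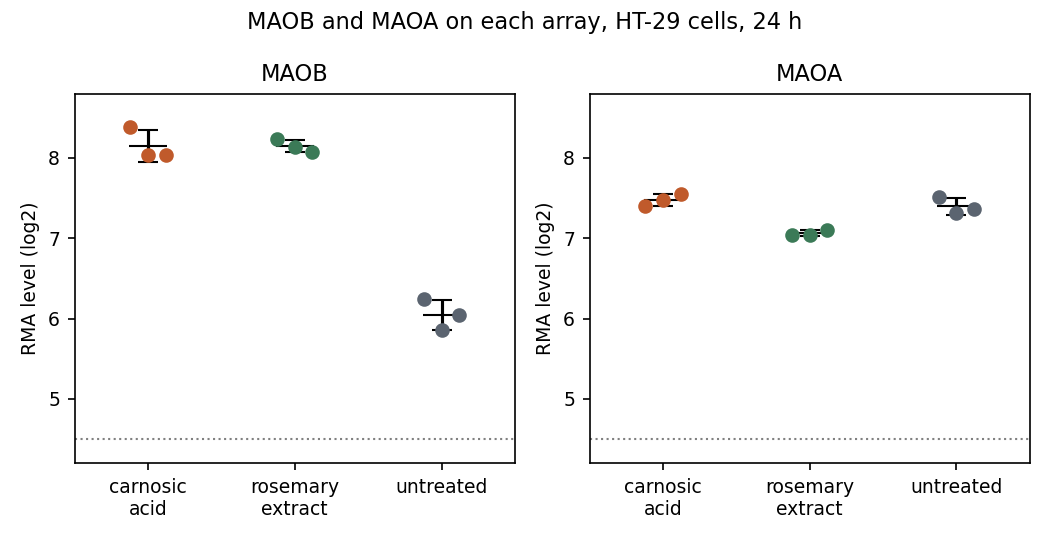
RMA level (log2) of MAOB (left) and MAOA (right) on each of the 9 arrays, in carnosic acid, rosemary extract and untreated cells. Points are arrays, bars the group mean with its SD (n = 3), and the dotted line is the limit of 4.50 for dim genes. MAOB lies between 8.03 and 8.38 in the 6 treated arrays and between 5.86 and 6.24 in the untreated arrays, while MAOA is lowest with rosemary extract.

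Carnosic acid replicates 2 and 3 held the same deposited MAOB value, 8.0294. Summarised array values coincide often in this table: 4.78% of all rows were identical between these arrays, and 3.66 to 5.61% over the 36 pairs of arrays. No pair of arrays was identical as a whole.

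Ranked by log2 change among the 11163 genes tested, MAOB was number 3 with carnosic acid and number 36 with rosemary extract. Just above it with carnosic acid were CEACAM5, the carcinoembryonic antigen, at 2.22, and the lipid hydrolase ABHD4 at 2.11. Just below it were SCEL, a precursor protein of the cornified envelope, at 1.82, VSIG10L at 1.73 and the glycerolipid enzyme GPAT3 at 1.73. With rosemary extract the changes of these 5 genes were 2.82, 3.05, 2.11, 1.38 and 2.38 in the same order, beside 2.10 for MAOB. Thus ABHD4, which lay next to MAOB with carnosic acid, was 8.27-fold higher with the extract, where MAOB was 4.29-fold higher. Of the 87 genes called at least 2-fold higher with carnosic acid, MAOB included, 77 had a larger mean change with the extract. MAOB was on neither side beyond its spread: its difference of 0.0020 between the treatments turned to -0.116 without carnosic acid replicate 1. In the direct comparison 56 of the 87 were called lower and 4 higher with carnosic acid than with the extract. A difference of at most 0.1 log2 units between the treatments was found for 7 of the 87. These ranks and counts rest on the contrasts for which MAOB was chosen and are descriptions. Both treatments were compared with the same untreated arrays.

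**Figure D2:**
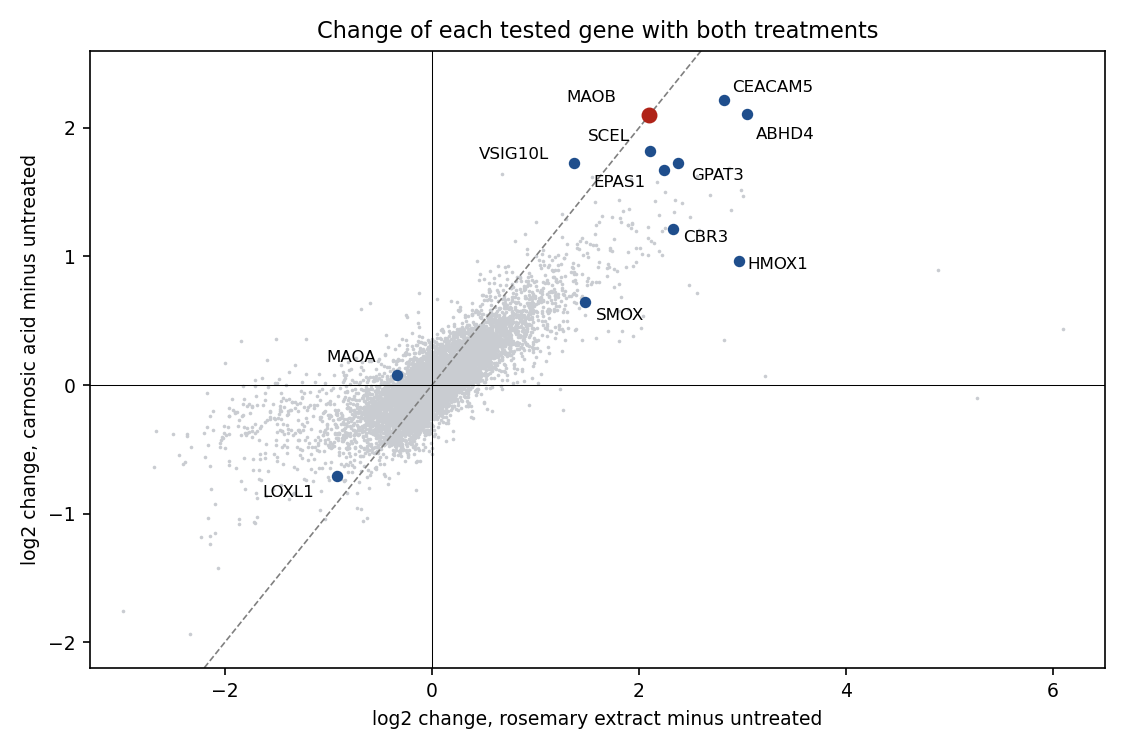
Log2 change of each of the 11163 genes tested, with rosemary extract minus untreated on the horizontal axis and carnosic acid minus untreated on the vertical axis. MAOB is red, other named genes are blue, all others are grey, and the dashed line marks equal changes. MAOB lies on the line at 2.10 on both axes, while CEACAM5, ABHD4, GPAT3, EPAS1, CBR3, HMOX1 and SMOX lie to the right of the line and VSIG10L to its left.

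MAOA, the paralog and direct neighbour of MAOB, was called higher with neither treatment. It stood at 7.40, 7.48 and 7.54 with carnosic acid, at 7.03, 7.04 and 7.10 with rosemary extract, and at 7.52, 7.32 and 7.36 in untreated cells (log2). All rosemary extract arrays lay below all others, and the carnosic acid and untreated arrays overlapped. MAOA fell with the extract, by 0.34 ± 0.08 (log2, SE; limma adjusted p = 0.00406), and did not pass with carnosic acid (0.08 ± 0.08, adjusted p = 0.521). It was 0.41 ± 0.08 higher with carnosic acid than with the extract (adjusted p = 0.0027). Each of these calls held under all alternatives run for it. On the wider X chromosome, the nearest named genes on MAOA's side after it were GPR34 and GPR82 and those on the other side NDP, EFHC2 and FUNDC1. GPR34, GPR82, NDP and EFHC2 were dim, with group means between 2.98 and 4.33, and were not tested. FUNDC1, a mitophagy receptor, changed by -0.16 with carnosic acid (adjusted p = 0.262) and by -0.15 with the extract (adjusted p = 0.225), neither of which passed.

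The promoters of MAOB and MAOA are shown because these adjoining paralogs differed in their values above. Each line gives 250 bases before and 50 bases after the start of transcription, 5′ to 3′ on the strand of the gene, from RefSeq on GRCh38.p14. That of MAOB is chrX:43882401-43882700 on the minus strand and that of MAOA is chrX:43656049-43656348 on the plus strand. Capitals mark GC boxes, the letters GGGCGG read on either strand, to which factors of the SP and KLF families can bind.
MAOB: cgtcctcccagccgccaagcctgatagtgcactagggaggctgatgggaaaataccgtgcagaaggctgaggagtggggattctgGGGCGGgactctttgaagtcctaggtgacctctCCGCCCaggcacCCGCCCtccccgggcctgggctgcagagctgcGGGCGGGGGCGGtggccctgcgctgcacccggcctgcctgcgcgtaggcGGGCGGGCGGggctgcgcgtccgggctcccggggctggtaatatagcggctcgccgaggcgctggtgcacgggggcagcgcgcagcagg
MAOA: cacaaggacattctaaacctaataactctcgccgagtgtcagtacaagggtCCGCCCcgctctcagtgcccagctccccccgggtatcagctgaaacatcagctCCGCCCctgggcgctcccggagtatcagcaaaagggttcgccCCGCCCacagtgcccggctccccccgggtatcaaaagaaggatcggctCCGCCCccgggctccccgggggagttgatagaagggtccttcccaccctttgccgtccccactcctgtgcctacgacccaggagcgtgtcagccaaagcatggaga
MAOB held 7 matches to GGGCGG and MAOA 4, with neighbouring or overlapping matches in MAOB, and 45.0% of 35116 promoters of the same length held at least 1. GC content was 72.0% for MAOB and 63.0% for MAOA, against a median of 58.7%. CACCC was matched 2 times in MAOB and 1 time in MAOA (59.9% of promoters held it). MAOB also held 1 match each to the letters AGGTCA, to which nuclear receptors can bind (13.8% of promoters), and GCGGGGGCG, an EGR1 site that overlaps GC boxes (5.07%), and MAOA held 0 of either. Neither window held TATAA (20.4% of promoters), TGANTCA, the AP-1 site (7.71%), or TGACNNNGC, the core of the antioxidant response element (13.3%). These are matches of letters in 1 window, searched on both strands.

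Other enzymes that oxidise amines moved in different directions. With carnosic acid 3 of 13 tested members were called higher and 1 lower, beside 19.0% of all genes called (12.9% higher, 6.12% lower). With the extract 2 were higher and 5 lower, beside 38.1% called over all genes (21.8% higher, 16.3% lower). SMOX, spermine oxidase, stood at 8.05, 7.95 and 7.95 with carnosic acid, at 8.87, 8.87 and 8.69 with the extract and at 7.46, 7.27 and 7.27 in untreated cells (log2). Its 3 groups did not overlap, and it rose by 0.65 ± 0.08 with carnosic acid (SE, limma adjusted p = 0.00019) and by 1.48 ± 0.08 with the extract (adjusted p = 9.14e-08). Unlike MAOB, whose levels under the treatments overlapped, SMOX was 0.83 lower with carnosic acid than with the extract (adjusted p = 2.14e-05). The histone demethylase KDM1B rose by 0.24 with carnosic acid and by 0.57 with the extract, while KDM1A changed by -0.10 with carnosic acid (adjusted p = 0.268) and fell by 0.40 with the extract. LOXL1, a secreted lysyl oxidase, fell by 0.71 with carnosic acid and by 0.92 with the extract. LOXL4 (-0.40) and the amino acid oxidase IL4I1 (-0.24) fell with the extract, and AOC1, the diamine oxidase of gut epithelium, rose by 0.28 with carnosic acid (adjusted p = 0.0411). PAOX, LOX, LOXL2, LOXL3 and PIPOX did not pass with either treatment, with changes between -0.19 and 0.25. These genes and AOC1 had low levels, with group means between 4.82 and 5.82 (log2), and a stricter filter on dim genes left them all out. Named markers of astrocytes, platelets and hepatocytes ran from 3.30 (PPBP) to 6.52 (PF4) in untreated cells. The levels of these amine oxidases therefore do not show that they were expressed. Calls here that single arrays ended were that of AOC1 (adjusted p = 0.144, 0.0548 and 0.0672 without carnosic acid replicates 1, 2 and 3, 0.0572 without the first rosemary extract array, and 0.125 and 0.0729 without untreated replicates 2 and 3), that of KDM1B with carnosic acid (0.0534 without carnosic acid replicate 1), and that of IL4I1 with the extract (0.0672 without rosemary extract replicate 2, 0.0514 without untreated replicate 2). Without carnosic acid replicate 1 the carnosic acid count was 1 higher and 1 lower.

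Genes that make and clear monoamines changed in both directions. Of 10 tested members 1 was called higher and 3 lower with carnosic acid, and 2 higher and 3 lower with the extract, beside 19.0% and 38.1% of all genes called in that order. DDC, which makes dopamine and serotonin from their amino acid precursors, stood at 5.64, 5.75 and 5.89 with carnosic acid, at 5.77, 5.86 and 5.66 with the extract, and at 6.38, 6.12 and 6.17 in untreated cells (log2). All treated arrays lay below all untreated arrays: it fell by 0.46 with carnosic acid (adjusted p = 0.00851) and by 0.46 with the extract (adjusted p = 0.00389). GCH1, which starts the synthesis of the cofactor tetrahydrobiopterin, rose by 0.39 with carnosic acid (adjusted p = 0.00369) and by 0.39 with the extract (adjusted p = 0.00149). HNMT, which methylates histamine and so makes a substrate of MAOB, fell by 0.38 with carnosic acid and by 0.90 with the extract. PNMT, the adrenaline-forming enzyme, fell by 0.42 with carnosic acid and by 0.41 with the extract, and QDPR, which recycles tetrahydrobiopterin, rose by 0.26 with the extract (adjusted p = 0.0383). The call of PNMT with carnosic acid was lost without carnosic acid replicates 1 (adjusted p = 0.098) or 3 (0.0825) or untreated replicates 1 (0.0522) or 2 (0.0923), and with the extract without rosemary extract replicate 2 (0.0664) or untreated replicate 2 (0.0618). That of QDPR was lost without rosemary extract replicates 1 (0.0914) or 2 (0.161) or untreated replicates 1 (0.069) or 2 (0.131). The extract count was 1 higher and 2 lower when either rosemary extract replicate 2 or untreated replicate 2 was left out. PNMT had group means of 5.107 with carnosic acid, 5.118 with the extract and 5.527 in untreated cells. With the dimmer 50% of genes left out, PNMT and DDC were not tested. The count was then 1 higher and 1 lower with carnosic acid, and 2 higher and 1 lower with the extract.

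The products of monoamine oxidase are aldehydes and hydrogen peroxide, and genes that remove them were measured in part. Of 22 aldehyde-clearing enzymes listed 3 were tested, and all 3 were called higher with both treatments, as were 12.9% of all genes with carnosic acid and 21.8% with the extract. The carbonyl reductase CBR3 rose by 1.21 with carnosic acid and by 2.33 with the extract (log2), CBR1 by 0.59 and 0.80 in that order, and the mitochondrial aldehyde dehydrogenase ALDH2 by 0.45 and 0.83. Of 17 tested peroxide-removing genes 7 were called higher and 4 lower with carnosic acid, and 6 higher and 5 lower with the extract. The shares of all genes called lower were 6.12% with carnosic acid and 16.3% with the extract. SRXN1, which repairs peroxiredoxins, rose by 1.42 with carnosic acid and by 2.41 with the extract, glutathione reductase GSR by 0.89 and 1.16, and thioredoxin reductase TXNRD1 by 0.67 and 1.05. Catalase, encoded by CAT, fell by 0.40 with carnosic acid and by 0.67 with the extract, and the mitochondrial peroxiredoxin PRDX3 by 0.37 and 0.59. In the 2 tested genes of flavin supply, the kinase RFK and the FAD synthase FLAD1, changes with carnosic acid (-0.11 and 0.02) and with the extract (0.17 and 0.11) did not pass.

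Polyamine genes, whose acetylated products MAOB can oxidise, were called higher in 4 of 12 tested members and lower in 0 with carnosic acid, and higher in 4 and lower in 3 with the extract. Over all genes 12.9% were higher and 6.12% lower with carnosic acid, and 21.8% higher and 16.3% lower with the extract. The acetyltransferase SAT1 rose by 0.40 with carnosic acid (adjusted p = 0.0382) and by 0.48 with the extract (adjusted p = 0.00855), and SAT2, an enzyme that acetylates thialysine, by 0.69 and 1.83. The transporters ATP13A2 (0.29 with carnosic acid, 0.25 with the extract) and ATP13A3 (0.22 and 0.29) were also higher, and spermine synthase SMS fell by 0.66 with the extract. Leaving out single arrays gave between 1 and 4 calls among the 12 with carnosic acid: 1 without carnosic acid replicate 1 or untreated replicate 2, and 2 without carnosic acid replicates 2 or 3, the second rosemary extract array or untreated replicate 3. Without carnosic acid replicate 3 those 2 were 1 higher and 1 lower. SAT1 was lost without carnosic acid replicates 1 (adjusted p = 0.153) or 3 (0.0719), any 1 of rosemary extract replicates 1, 2 and 3 (0.0518, 0.0512 and 0.0517) or untreated replicates 2 (0.131) or 3 (0.0846). SAT2 was lost without carnosic acid replicates 1 (0.101) or 2 (0.0637) or untreated replicates 2 (0.0699) or 3 (0.0828), and ATP13A2 without carnosic acid replicate 3 (0.0535). ATP13A3 was lost without carnosic acid replicates 1, 2 or 3 (0.163, 0.0692 and 0.0666), the second rosemary extract array (0.0685) or untreated replicates 1 (0.126) or 2 (0.123). With the extract ATP13A2 was lost without rosemary extract replicate 3 (0.0601) or untreated replicate 3 (0.0607), and the extract count was 3 higher and 1 lower without untreated replicate 3. SMS changed by -0.19 with carnosic acid (0.0802), which passed as lower without rosemary extract replicate 3 (0.0291), under cyclic loess (0.0406) and in the fit to the 6 arrays compared (0.0447). Under cyclic loess the carnosic acid count for this list was 2 higher and 2 lower.

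**Figure D3:**
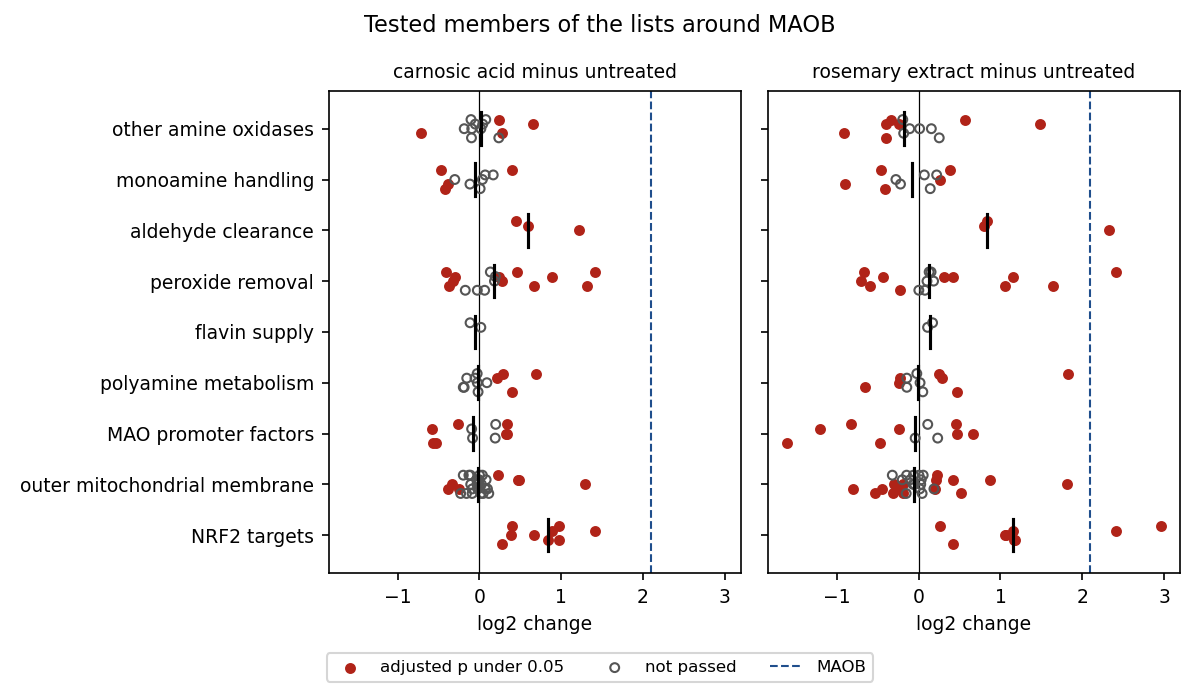
Log2 change of each tested member of 9 gene lists, with carnosic acid minus untreated (left) and rosemary extract minus untreated (right). Filled points passed limma's test at an adjusted p under 0.05, open points did not, black bars are list medians and the dashed line is MAOB at 2.10. With carnosic acid every listed gene lies to the left of MAOB, and with the extract HMOX1, SRXN1 and CBR3 lie to its right.

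Factors reported at the monoamine oxidase promoters changed in both directions. Of 11 tested members 3 were called higher and 4 lower with carnosic acid, and 3 higher and 5 lower with the extract, where 19.0% and 38.1% of all genes were called in that order. KLF11, an activator of MAOB, stood at 8.23, 8.25 and 8.36 with carnosic acid, at 8.56, 8.53 and 8.18 with the extract and at 7.97, 7.94 and 7.96 in untreated cells (log2). All treated arrays lay above the untreated ones, with a rise of 0.32 with carnosic acid (adjusted p = 0.0314) and of 0.47 with the extract (adjusted p = 0.00185). SP1, which binds GC boxes, rose by 0.34 with carnosic acid (adjusted p = 0.000959) and changed by 0.11 with the extract (adjusted p = 0.123). The nuclear receptor ESRRA rose by 0.34 with carnosic acid and by 0.67 with the extract, and the deacetylase SIRT1 by 0.45 with the extract. JUN, an AP-1 subunit, fell by 0.53 with carnosic acid (adjusted p = 0.000464) and by 0.47 with the extract (adjusted p = 0.000304). FOS fell by 0.27 and 0.82, the zinc-finger factor GATA2 by 0.58 and 1.20, and CDCA7L, a repressor of MAOA, by 0.56 and 1.61, with carnosic acid and the extract in that order. SP3 fell by 0.24 with the extract, and EGR1 (-0.08 with carnosic acid, -0.04 with the extract) and FOXO1 (0.19 and 0.23) did not pass.

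Several of these calls lay near the threshold and were lost with fewer arrays. KLF11 lost its carnosic acid call without any 1 of the 3 carnosic acid arrays (adjusted p = 0.0644, 0.0625 and 0.095 for replicates 1, 2 and 3) or of the 3 untreated arrays (0.0732, 0.0837 and 0.0658), while its log2 change stayed between 0.286 and 0.35. ESRRA lost its own without carnosic acid replicates 1 (0.0807) or 3 (0.0679) or untreated replicate 3 (0.0619), with changes of 0.31, 0.292 and 0.302, and FOS without carnosic acid replicates 1 (0.0859) or 2 (0.0908) or untreated replicates 1 (0.099) or 3 (0.0864). SP3 lost its extract call without rosemary extract replicates 2 (0.0521) or 3 (0.0926) or untreated replicates 1 (0.0568) or 3 (0.0873). FOXO1 passed as higher without untreated replicate 3 (0.0159 with carnosic acid, 0.00376 with the extract). Without carnosic acid replicate 1 the carnosic acid count for these factors was 1 higher and 3 lower.

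Genes of the outer mitochondrial membrane, where the MAOB protein sits, changed in both directions. Of 30 tested members 4 were called higher and 3 lower with carnosic acid (median change -0.02, against -0.01 over all genes), and 7 higher and 8 lower with the extract (median -0.06, against -0.02 over all genes). Over all genes 19.0% were called with carnosic acid and 38.1% with the extract. ACSL1, an acyl-CoA synthetase, rose by 1.30 with carnosic acid and by 1.82 with the extract, CPT1A, the carnitine acyltransferase of fatty acid import, by 0.48 and 0.43, and the mitophagy receptor BNIP3L by 0.49 and 0.87. MTARC1, a molybdenum enzyme, fell by 0.39 with carnosic acid and by 0.81 with the extract, and the import subunit TOMM5 by 0.25 and 0.45. The carnosic acid call of MTARC1 was lost without carnosic acid replicates 1 (adjusted p = 0.119) or 2 (0.1) or untreated replicates 1 (0.0776) or 2 (0.11), and that of TOMM5 without carnosic acid replicates 1 (0.0863) or 2 (0.0784) or untreated replicate 1 (0.0718). Leaving out any 1 of these 4 arrays brought the carnosic acid count to 4 of 30.

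NRF2 targets, which answer electrophiles, were called higher throughout the 9 tested of 21 listed: 9 with carnosic acid (median change 0.84) and 9 with the extract (median 1.16), beside 12.9% of all genes called higher with carnosic acid and 21.8% with the extract. Under cyclic loess 8 passed with carnosic acid. Earlier results of these data already showed this list to be higher. SRXN1, TXNRD1 and GSR belong to this list and also to the peroxide-removing genes above, so the counts of the lists are not separate. HMOX1, haem oxygenase, rose by 0.97 with carnosic acid and by 2.96 with the extract, a difference of -1.99 between carnosic acid and the extract (adjusted p = 1.56e-07). PGD, an NADPH-forming enzyme, rose by 0.84 and 1.17, and UGDH, which makes UDP-glucuronate, by 0.97 and 1.16. In the direct comparison 6 of 9 were called lower with carnosic acid than with the extract and 0 higher, beside 17.3% of all genes called (9.07% higher, 8.24% lower).

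The genes most like MAOB were taken from 563 tested genes whose group means spanned at least 1 log2 unit. The 10 with the highest Pearson r with MAOB over the 9 arrays had r between 0.983 and 0.994, and 42 of the 563 had r of at least 0.95. They were TRAM2 (r = 0.994), the actin-associated ZNF185 (0.990), the interleukin 1 receptor antagonist IL1RN (0.989), SCEL (0.988), the Ral exchange factor RALGPS2 (0.988), ferrochelatase FECH (0.988), the ferric reductase FRRS1 (0.987), GOLT1A (0.985), netrin NTN4 (0.984) and UGDH (0.983). The arrays fall into treated and untreated ones, so r mostly repeats that split and is given as a description. TRAM2 stood at 9.48, 9.46 and 9.48 with carnosic acid, at 9.55, 9.50 and 9.37 with the extract and at 8.22, 8.10 and 8.22 in untreated cells (log2), a change of 1.29 with carnosic acid and of 1.30 with the extract. FECH stood at 8.22, 8.08 and 8.07 with carnosic acid, at 8.11, 8.21 and 8.07 with the extract and at 7.07, 7.16 and 7.13 in untreated cells. For both genes the treated arrays overlapped each other and lay apart from the untreated arrays, as for MAOB, with smaller changes (FECH 2.01-fold higher with the extract). In none of the 10 did the direct comparison of carnosic acid with the extract pass (differences from -0.29 for SCEL to 0.08 for FRRS1), though without carnosic acid replicate 1 that of SCEL (adjusted p = 0.00177) and that of UGDH (0.0472) did, both lower with carnosic acid. With the replicate number as a block UGDH also passed (0.0175). The 10 were chosen by r with MAOB, whose treatment means differed by 0.0020. Similar levels under both treatments were thus largely built into the choice. Within groups, deviations from the group mean correlated with those of MAOB at 0.909 for RALGPS2, 0.867 for FRRS1, 0.861 for GOLT1A and 0.266 for FECH over the 9 arrays. The others of the 10 lay between 0.575 (TRAM2) and 0.811 (NTN4). Such values are not particular to the 10: EGR1, with an r of -0.058 over the 9 arrays, reached 0.867 within groups.

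By the pair of changes themselves, SCEL lay nearest to MAOB (1.82 with carnosic acid, 2.11 with the extract). EPAS1, a hypoxia-inducible factor (1.67 and 2.24), GPAT3 (1.73 and 2.38), STEAP1 (1.58 and 2.18) and EMP3 (1.60 and 1.92) followed. Each of these 4 was called lower with carnosic acid than with the extract, with differences of -0.57, -0.66, -0.60 and -0.32. The mean of STEAP1 in untreated cells, 3.686, was under the limit for dim genes. Its call between the treatments was lost under 7 alternatives (adjusted p up to 0.122, reached without carnosic acid replicate 1, and also lost without carnosic acid replicate 2, any 1 rosemary extract array, untreated replicate 1 or the filter on dim genes), and that of EMP3 without carnosic acid replicate 2 (0.0504) or rosemary extract replicate 2 (0.0723).

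**Figure D4:**
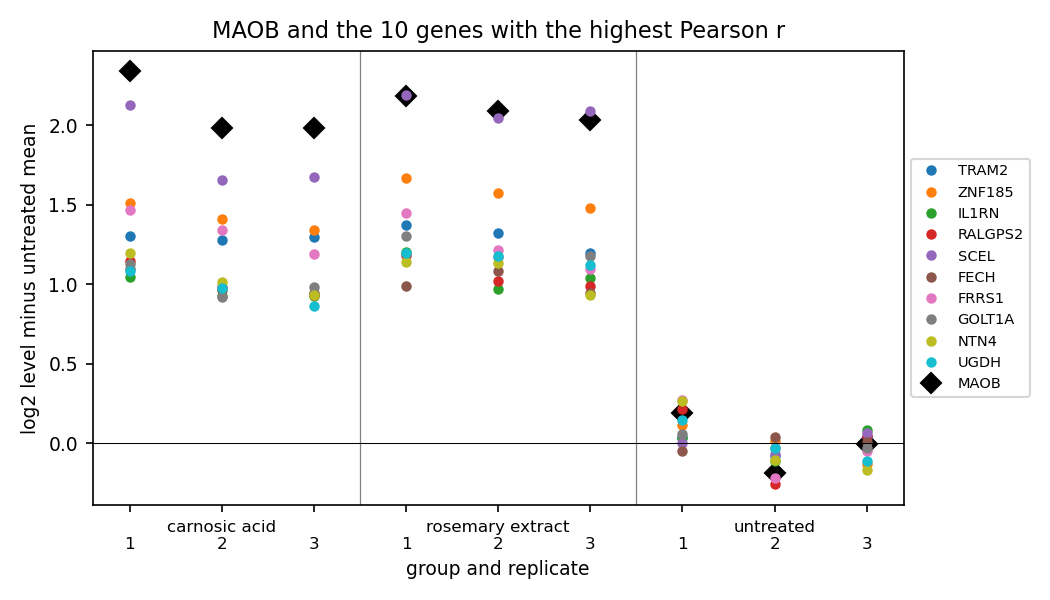
Log2 level minus the untreated mean for MAOB (black diamonds) and the 10 genes with the highest Pearson r (coloured points), for replicates 1 to 3 of carnosic acid, rosemary extract and untreated cells. In the treated arrays MAOB and SCEL lie highest, and the other 9 genes have mean rises between 0.97 and 1.57.

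Of 18 epithelial markers listed 13 were named, and all 13 lay above the limit for dim genes. That limit cannot check the labelled cell type, as markers of other cells passed it too. Above it lay 4 of 5 named markers of hepatocytes, 2 of 3 of platelets and 1 of 3 of astrocytes. For leukocytes 2 of 2 did, with LYZ at 12.43 in untreated cells, and for fibroblasts 0 of 2. Of the 13 epithelial markers 4 were called higher and 3 lower with carnosic acid, and 3 higher and 4 lower with the extract. Over all genes 19.0% and 38.1% were called in that order. CEACAM5, CEACAM6 and KRT20 were higher with both treatments, and EPCAM, KRT18 and VIL1 lower. As 1 example of each direction, group means were 9.40 with carnosic acid, 10.01 with the extract and 7.19 in untreated cells for CEACAM5, and 8.20, 7.26 and 8.55 in that order for VIL1 (log2). CDX2 and PHGR1 were the dimmest, with group means between 4.95 and 5.77. The part of these shifts in the MAOB result was not tested. Of the cells best known for MAOB, the named markers of astrocytes (3), platelets (3) and hepatocytes (5) had list means between 4.47 and 5.35 on every array. Single markers came near or above the untreated MAOB mean of 6.045. In untreated cells GFAP stood at 6.16, PF4 at 6.52 and TTR at 6.03, and the other named markers of astrocytes, platelets and hepatocytes between 3.30 and 5.89. Of the 7 tested 0 were called by limma with either treatment, and 1 with carnosic acid and 0 with the extract had an unadjusted p under 0.05. Over all genes tested, scores on the leading principal component (68.1% of the variance) were -6.02 to 2.79 with carnosic acid, 21.8 to 28.7 with the extract and -25.3 to -23.9 in untreated cells. Carnosic acid arrays lay between the other groups on this component, and overlapped the rosemary extract arrays in MAOB.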

How the data were processed

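RNA from 9 HT-29 cultures was measured on Affymetrix GeneChip 2.0 ST arrays. The deposited log2 values are RMA signals that the authors obtained with the R package oligo, per the labels. RMA subtracts background, quantile-normalizes arrays and combines probes into rows. It compresses large folds and gives no detection call. The sources used here give neither versions nor the authors' annotation. The values themselves show the log2 scale, and array medians were 4.82 to 4.90.

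Of 53617 rows 16098 had 1 symbol in the platform annotation, 0 had several and 37519 were unnamed. All 16098 Entrez identifiers matched RefSeq (GRCh38.p14). The row with the highest mean was kept per gene (14884 genes), and the dimmest 25% (3721) were left out, leaving 11163. Group means were fitted to the 9 arrays with limma 3.58.1 in R 4.3.3 (lmFit, eBayes with trend, 6 residual degrees of freedom, two-sided, Benjamini-Hochberg over 11163 genes, called under 0.05). The number of arrays limits the precision. The fit was tested on simulated data with 200 changed genes, fewer than were called here. For carnosic acid and the extract against untreated cells it called 11.9% and 16.1% of 1.2-fold changes, and 73.1% and 74.3% of 1.5-fold changes. At 2-fold it called 94.8% and 97.9%, and 5.68% and 5.44% of its calls were false. Small changes that did not pass are therefore not shown to be absent. Alternatives covered scaling, filters, rows, variance model and single arrays.

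The gene, the lists and the rules were chosen with earlier results of these data known. Named genes are MAOB, the tested amine oxidases and promoter factors, 5 members of each other list with the smallest p, the 10 genes highest in r, the 5 nearest in change, the 3 on each side in order of change (MAOB has only 2 above it) and the 3 nearest named neighbours on each side. Epithelial markers were named after their values were seen.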

Additional observations from a re-analysis of the deposited data

How the results depend on the processing

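The MAOB differences were repeated under 12 alternatives: median centring, cyclic loess, the mean of a gene's rows and each array left out. The difference from untreated stayed between 1.98 and 2.20 with carnosic acid and between 2.01 and 2.20 with rosemary extract. Between the treatments it ran from -0.116 to 0.0608, and all values lay within the pooled SD of 0.167 of the reported ones. MAOB has 1 row, so the mean of a gene's rows could not change these differences. Nor could leaving out an array of the group outside a comparison. With single arrays left out, 1385 to 2124 genes were called for carnosic acid against untreated, 3493 to 4237 for rosemary extract against untreated and 1289 to 1965 for carnosic acid against rosemary extract. The lowest of the first was without carnosic acid replicate 1 (1018 higher, 367 lower). Testing all rows gave 7230 calls for rosemary extract against untreated (4207 higher, 3023 lower), with more rows tested. Calls with carnosic acid were higher in 67.8%, and in 77.7% under median centring and 60.8% under cyclic loess. Of 3696 repeats of single-gene results, 3549 kept their outcome, either called in both fits or called in neither. A call was lost in 136 and gained in 11, and 0 called ones changed sign. As results called in neither fit are among the 3549, these counts give no share of calls that held. Replicate numbers were not treated as pairs: deviations of same-numbered arrays correlated between -0.219 and 0.238, over 0.1 in 3 of 9 pairs. With 3 arrays per group these values cannot decide whether the numbers pair the cultures. Replicate 1 held the highest MAOB value of each group (8.38 with carnosic acid, 8.23 with the extract, 6.24 in untreated cells). With the replicate number as a block, 2194, 4226 and 1947 genes were called in the 3 comparisons, and AOC1 with carnosic acid (adjusted p = 0.0503) and QDPR with the extract (0.0592) lost their calls. Other settings that ended a call against untreated were median centring for FOS (adjusted p = 0.0749), MTARC1 (0.0513) and TOMM5 (0.0657) with carnosic acid and SP3 (0.0715) with the extract, and cyclic loess for SAT1 (0.0577) and ATP13A3 (0.0843) with carnosic acid and ATP13A2 (0.051) with the extract. Fitting the 6 arrays alone ended AOC1 (0.0635), PNMT (0.0585) and SAT1 (0.0804) with carnosic acid and QDPR (0.0595) and SP3 (0.0508) with the extract. Without the filter on dim genes AOC1 (0.0518), SAT1 (0.056) and ATP13A3 (0.0607), and without the variance trend SAT1 (0.0588) and ATP13A3 (0.0868), did not pass with carnosic acid. No group of 3 can be checked for outlying arrays.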
